A study of Rattus norvegicus with 12 samples.

Results

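The voltage-dependent anion channels Vdac1, Vdac2 and Vdac3 were followed across the series. Their probes were taken from the arrays by the gene name in the files, which gave 3 probes for Vdac1, 1 for Vdac2 and 1 for Vdac3, that is 3 of 36174 gene names and 5 of the 45598 distinct probes that are not controls. The 5 were kept apart and not averaged. Gene expression had been measured in N27 cells, an immortalised rat line labelled as dopaminergic neurons, on 1-colour Agilent arrays. The knockout group held 7 cultures with the label VDAC1 KO, numbered KO 1 to KO 7, and the wild-type group held 5 cultures with the label WT, numbered WT 3 and WT 5 to WT 8. The series' design text says that the cultures were grown before being assessed and gives no other treatment of either group. The sources used here do not give whether the knockout cultures descend from 1 edited clone, where in Vdac1 the edit lies, or whether the cultures were grown independently. The p-values therefore cover the spread between cultures as deposited, which may be technical.

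VDAC proteins are beta-barrel channels of the outer mitochondrial membrane, inserted there by the TOM and SAM complexes. They pass ATP, ADP, phosphate, calcium ions and metabolites between cytosol and mitochondria, and they dock cytosolic proteins such as hexokinase at the mitochondrial surface. VDAC1 is the most abundant isoform in most mammalian tissues, VDAC2 binds the apoptosis effector BAK, and VDAC3 conducts poorly in reconstituted membranes and is known in mouse for its part in sperm motility.

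The 12 arrays lay on 3 slides, and the signal at the 75th percentile ranged from 120.1 to 691.8 between them. Probes were tested where 5 or more of the 12 arrays had them well above background. Of these 17922 probes, 123 were higher and 79 lower in the knockout (limma, Benjamini-Hochberg adjusted p under 0.05). These are 0.686% and 0.441% of the probes tested. With 1 culture left out at a time the counts ran from 13 to 442 higher and from 4 to 335 lower, and both were highest without WT 3. All 5 Vdac probes passed this filter and were well above background on all 12 arrays, and no spot was saturated. Of 10 dopaminergic markers, Th and Aldh1a1 were well above background on every array, while Slc6a3 (the dopamine transporter), Foxa2 and En1 were so on no array. Of 8 neuronal markers only Eno2 was above background on every array, and Map2, Nefl and Syp were so on no array. Among markers of other cell types, 0 of 5 for astrocytes, 1 of 5 for microglia and macrophages (Cx3cr1), 0 of 4 for oligodendrocytes and 1 of 5 for fibroblasts (Col1a1) were above background on every array. Ptprc, Itgam and Csf1r of the microglial list, Mbp of the oligodendrocyte list and Dcn and Lum of the fibroblast list were above background on no array. Others were so on part of the arrays. Mag of the oligodendrocyte list was above background on 6 of 7 KO and 4 of 5 WT arrays. Of the fibroblast list, Col1a2 was so on 5 KO and 3 WT arrays and Pdgfra on 3 of each. Because RNA was taken from whole cultures, fewer cells with Vdac1 RNA and less Vdac1 RNA per cell cannot be told apart.

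The probes are 60 bases long and read different stretches of the Vdac1 transcript NM_031353. Their sequences are shown because they place the residual Vdac1 signal along the message. The coding part is covered by the probes at bases 630 and 880 of the transcript, and the second of these is printed through the stop codon, which is in capitals. The probe named by the transcript ENSRNOT00000015727, which is not named Vdac1 in the files, is shown with them because it lies upstream at the same locus.
Probe at base 269, ENSRNOT00000015727: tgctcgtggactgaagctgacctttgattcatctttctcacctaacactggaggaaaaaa
Vdac1 probe at base 630: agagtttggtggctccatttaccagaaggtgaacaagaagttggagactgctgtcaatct
Vdac1 probe at base 880: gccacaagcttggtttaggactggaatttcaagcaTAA
On build rn4, as the files give it, the probe at base 630 lies at chr10:37819583-37819641 and the probe at base 880 at chr10:37822333-37822392. The third Vdac1 probe, at base 1724 and chr10:37823174-37823233, lies beyond the stop codon in the 3′ untranslated region and is the one used where 1 probe stands for Vdac1. The probe at base 269 is given a span of 7606 bases, chr10:37809927-37817532, as a probe that crosses an intron would be. The Vdac2 probe, at base 1286 of NM_031354, lies at chr15:2515653-2515712, and the Vdac3 probe, at base 1293 of NM_031355, at chr16:73939334-73939393. No genome of that build was used here to check these positions.

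Vdac1, the targeted gene, had a lower signal in every knockout culture than in every wild-type culture on all 3 of its probes, and it remained measurable in all 7 knockout cultures. The mean reduction was 2.22-fold to 2.34-fold between probes. With normexp background correction, which shrinks differences of dim probes, the log2 differences were smaller, at -0.59, -0.71 and -1.09 for bases 630, 880 and 1724, and none was called (limma adjusted p = 0.499, 0.286 and 0.103). Values are log2 signal relative to the array's 75th percentile, and levels of different probes are not compared with each other. At base 630 the log2 values were -2.19, -2.44, -2.29, -2.31, -3.37, -4.15 and -2.87 in KO 1 to KO 7, against -1.81, -1.89, -1.69, -1.29 and -1.57 in WT 3 and WT 5 to WT 8. KO 5, KO 6 and KO 7 were the lowest and the groups did not overlap. The means were -2.80 ± 0.73 (SD, n = 7) in KO cultures and -1.65 ± 0.24 (SD, n = 5) in WT cultures, a difference of -1.15 (SE 0.31, exact two-sided permutation p = 0.00631, limma adjusted p = 0.0900). It passed with slide as a block, at -1.27 (limma adjusted p = 0.0484), and with the class of the sample number, 1 to 4 or 5 to 8, as a block, at -1.42 (limma adjusted p = 0.0130).

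At base 880, the end of the coding sequence, the log2 values were -1.95, -2.10, -1.96, -1.87, -3.02, -3.09 and -2.58 in KO 1 to KO 7, against -1.28, -1.51, -1.32, -0.53 and -1.10 in the wild-type cultures in the order above. The same 3 knockout cultures were lowest, and WT 7 was highest. The probe averaged -2.37 ± 0.52 (SD, n = 7) in KO cultures and -1.15 ± 0.38 (SD, n = 5) in WT cultures. The difference of -1.22 (SE 0.26, 95% confidence interval -1.77 to -0.67) gave an exact two-sided permutation p of 0.00126, the smallest that dividing 12 arrays into 7 and 5 can give, and a limma adjusted p of 0.0424. This was the single Vdac1 probe called over all probes. The call was kept without KO 4 (adjusted p = 0.0485) or WT 3 (adjusted p = 0.0299) and lost without any 1 of the other 10 cultures, with limma adjusted p between 0.0557 without KO 5 and 0.112 without WT 8. It was kept in 10 of 29 alternative settings, and the difference was below 0 in all 29.

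At base 1724, in the 3′ untranslated region, the log2 values were 2.54, 2.45, 2.68, 2.26, 1.21, 1.53 and 1.20 in KO 1 to KO 7, against 3.61, 3.14, 3.07, 3.16 and 3.07 in the wild-type cultures. KO 5 to KO 7 again lay below KO 1 to KO 4, and WT 3 stood above the other 4 wild-type cultures. The means were 1.98 ± 0.65 (SD, n = 7) and 3.21 ± 0.23 (SD, n = 5), a difference of -1.23 (SE 0.28, 95% confidence interval -1.83 to -0.62, exact two-sided permutation p = 0.00505). Limma's adjusted p over all probes was 0.0564, which misses the threshold, and it was 0.0236 with slide as a block, where 1.04% of all probes were called lower. Over the 30 alternatives the difference lay between -1.97 and -0.58 and passed in 10. Across the 17922 probes 86 had a difference as low or lower, 0.480% of them, and 87 for base 880 and 109 for base 630.

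**Figure D1:**
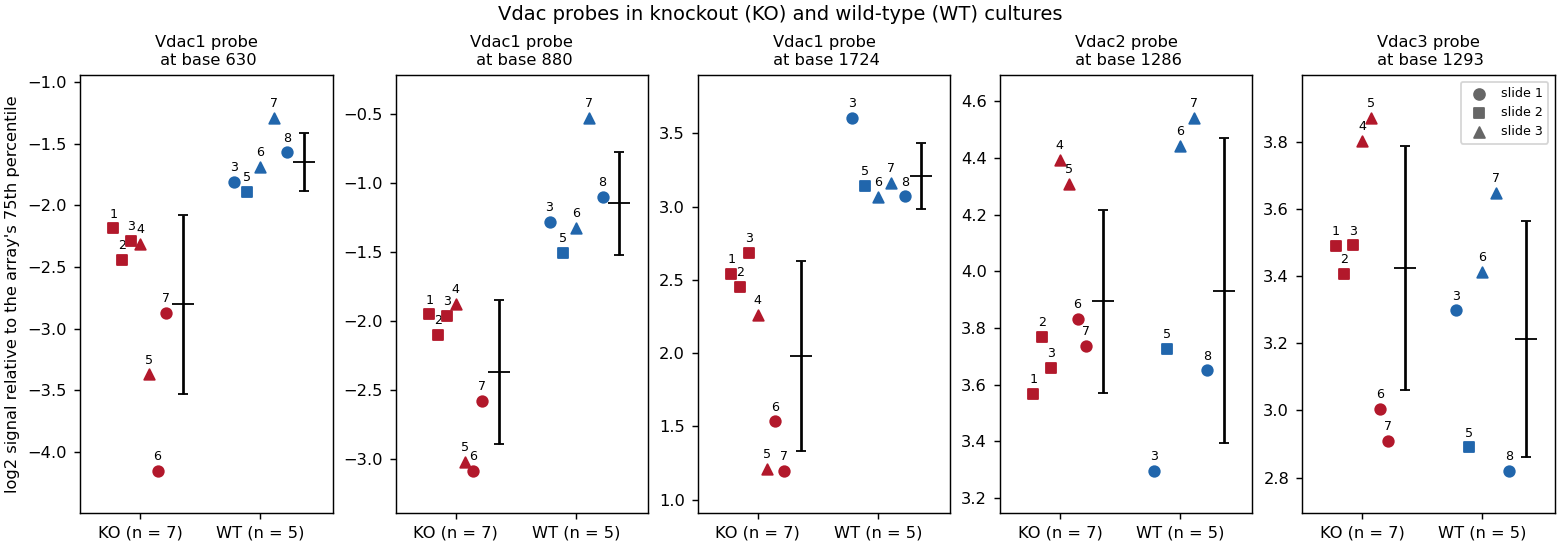
Log2 signal of the 5 Vdac probes relative to each array's 75th percentile, with 1 point for each culture, KO left and WT right in each panel. The number beside a point is the sample number, the marker gives the slide, and bars show the mean and SD. On each of the 3 Vdac1 probes all 7 KO points lie below all 5 WT points, while the groups overlap for Vdac2 and Vdac3.

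The 3 Vdac1 probes were reduced by amounts that differed by less than the spread between cultures. The within-array difference between the probes at bases 630 and 880 averaged -0.44 ± 0.29 (SD, n = 7) in KO cultures and -0.50 ± 0.16 (SD, n = 5) in WT cultures, 0.068 apart (exact two-sided permutation p = 0.676). For bases 630 and 1724 the knockout minus wild-type difference was 0.074 (exact permutation p = 0.797), and for bases 880 and 1724 it was 0.0063 (exact permutation p = 0.980). Adjusted over the 3 pairs, each p was 0.980. Leaving out 1 culture at a time moved these contrasts between -0.13 and 0.22, and with normexp background correction they were 0.13, 0.51 and 0.38 in that order (exact permutation adjusted p = 0.314 each). The coding sequence, its end and the 3′ untranslated region were not shown to differ in how far they were reduced. The position of the edit among them is unknown here, and the arrays hold no measure of VDAC1 protein.

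The probe of ENSRNOT00000015727 was looked at after its values had been seen. It shares that transcript with the Vdac1 probe at base 630 in the files' accessions, but its description names a gene similar to Vdac1 that RefSeq now lists as the pseudogene Vdac1-ps11, so it may read a pseudogene copy too. Its log2 values were 0.26, -0.084, 0.0016, -0.32, -1.33, -1.19 and -1.14 in KO 1 to KO 7, against 1.84 in WT 3 and 0.33, 0.45, 0.47 and 0.49 in WT 5 to WT 8. All knockout values lay below all wild-type values, KO 5 to KO 7 were lowest, and WT 3 was far above the other 4. The difference was -1.26 (SE 0.34, exact two-sided permutation p = 0.00379, limma adjusted p = 0.0907). A probe for the pseudogene Vdac1-ps7, at chr2:165897304-165897363, had signals between -5.19 and -3.71 in the knockout and between -3.30 and -2.32 in the wild type. It differed by -1.51 (SE 0.26, exact permutation p = 0.00126, limma adjusted p = 0.0214), and 9 of the 12 arrays had it well above background. With normexp the difference was -0.52 (limma adjusted p = 0.725), and the call was also lost without KO 2, WT 6, WT 7 or WT 8 (limma adjusted p = 0.0585, 0.0611, 0.0541 and 0.0591). Whether it reads its own transcript or that of Vdac1 is uncertain. Of 3 probes for Vdac2-ps3, a copy of Vdac2, probe A differed by 0.41 (limma adjusted p = 0.336) and probe B by 0.089 (limma adjusted p = 0.871), and probe C was above background on no array.

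Vdac2, which binds BAK and holds it at the mitochondrion, showed no called difference between the genotypes. Its log2 values were 3.57, 3.77, 3.66, 4.39, 4.31, 3.83 and 3.74 in KO 1 to KO 7, against 3.30, 3.73, 4.44, 4.54 and 3.65 in the wild-type cultures. KO 4, KO 5, WT 6 and WT 7, the 4 arrays of slide 3, were the highest, and the genotypes overlapped. The means of 3.89 ± 0.32 (SD, n = 7) in KO cultures and 3.93 ± 0.54 (SD, n = 5) in WT cultures differed by -0.037, with a 95% confidence interval of -0.54 to 0.47 (exact two-sided permutation p = 0.898, limma adjusted p = 0.960). The sign of this difference turned with slide as a block, to 0.044. The interval then ran from -0.23 to 0.31 (limma adjusted p = 0.881).

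Vdac3 gave no called difference either. Its log2 values were 3.49, 3.41, 3.49, 3.80, 3.87, 3.004 and 2.91 in KO 1 to KO 7, against 3.30, 2.89, 3.41, 3.65 and 2.82 in the wild-type cultures. KO 4 and KO 5 were highest and WT 8 lowest, with overlap between the groups. The knockout averaged 3.42 ± 0.36 (SD, n = 7) and the wild type 3.21 ± 0.35 (SD, n = 5), a difference of 0.21 with a 95% confidence interval of -0.23 to 0.65 (exact two-sided permutation p = 0.327, limma adjusted p = 0.658). Of 30 alternatives 1 called it, the fit with array weights, at 0.49 (limma adjusted p = 0.0187). That fit called 3179 probes higher and 2886 lower.

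**Figure D2:**
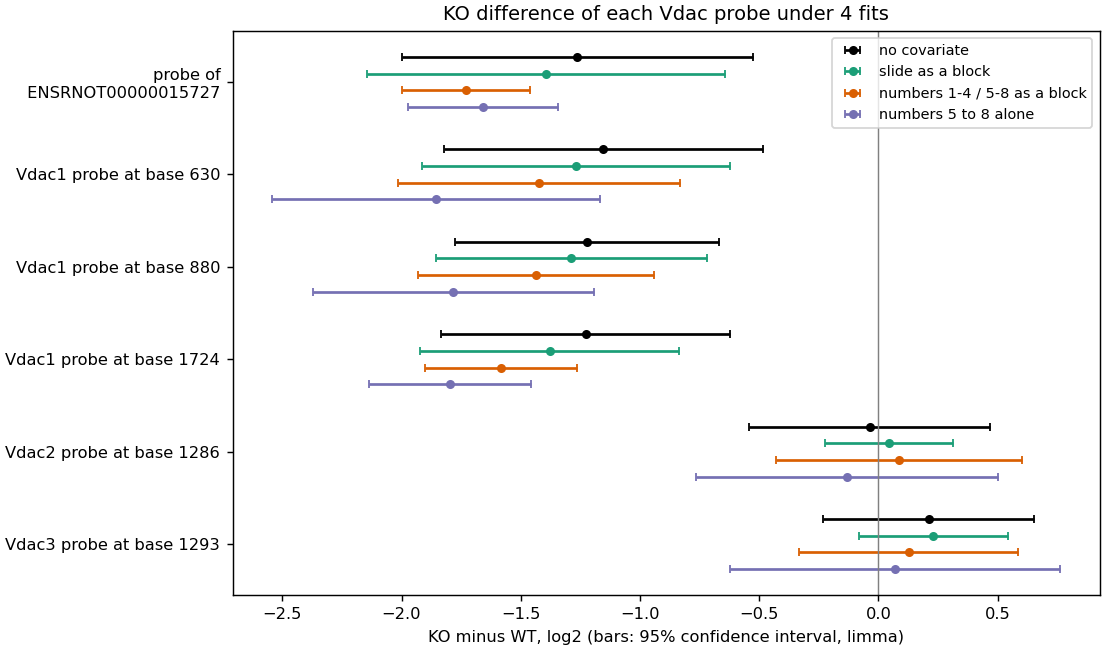
Knockout minus wild-type difference of log2 signal for the 5 Vdac probes and the probe of ENSRNOT00000015727, with 95% confidence intervals from limma. Colours mark 4 fits: no covariate, slide as a block, the class of the sample number (1 to 4, or 5 to 8) as a block, and numbers 5 to 8 alone. All intervals of the Vdac1 probes lie below 0 in the 4 fits, and all intervals of Vdac2 and Vdac3 include 0.

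The isoforms were compared through the difference between 2 probes on the same array, which removes what both probes share on that array. A shift that differs between the probes stays in it. With genotype in the fit, the second scan day minus the first was 0.77 for Vdac2, 0.55 for Vdac3 and -0.26 for Vdac1 at base 1724. The contrasts of Vdac1 with Vdac2 and Vdac3 therefore carry this shift. Vdac1 minus Vdac3 averaged -1.44 ± 0.64 (SD, n = 7) in KO cultures and -0.0035 ± 0.38 (SD, n = 5) in WT cultures, and all 7 knockout arrays lay below every wild-type array. The knockout effect on Vdac1 was therefore -1.44 relative to that on Vdac3 (exact two-sided permutation p = 0.00126, adjusted p over 3 pairs = 0.00379). It kept its call without any 1 of the 12 cultures, and it was -1.87, -1.16 and -1.69 within slides 1, 2 and 3.

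Vdac1 minus Vdac2 averaged -1.91 ± 0.82 (SD, n = 7) in KO cultures and -0.72 ± 0.70 (SD, n = 5) in WT cultures. The difference was -1.19 (exact two-sided permutation p = 0.0278, adjusted p over 3 pairs = 0.0417), and 4 of the 7 knockout arrays, KO 4 to KO 7, lay below every wild-type array. This call was lost without KO 4, KO 5, KO 6, KO 7, WT 3, WT 5 or WT 8, with exact permutation adjusted p between 0.0682 and 0.0909, and with quantile normalization (-1.12, exact permutation adjusted p = 0.0530). Within slides 1, 2 and 3 the Vdac1 minus Vdac2 difference was -2.28, -0.52 and -1.24. Vdac2 minus Vdac3 differed by -0.25 between the genotypes (exact permutation p = 0.234, also after adjustment). WT 3 decided that value. Without WT 3 it was -0.43 (exact permutation adjusted p = 0.0182).

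Vdac2 and Vdac3 moved with the day of scanning, and the same test called none of the Vdac1 probes. Slides 1 and 2 were scanned on the first day and slide 3 on the second, and each slide held both genotypes. Vdac2 lay between 4.31 and 4.54 on the 4 arrays of slide 3 and between 3.30 and 3.83 on the other 8, with no overlap. With genotype in the fit, the second scan day exceeded the first by 0.77 for Vdac2 (SE 0.12, limma adjusted p = 0.00425) and by 0.55 for Vdac3 (SE 0.15, limma adjusted p = 0.0457). Over all probes 4.7% were called higher and 3.68% lower on the second day. The 3 Vdac1 probes had limma adjusted p of 0.898, 0.854 and 0.638 for the scan day. A test of slide over its 3 levels, added after the values were seen, called Vdac2 (limma adjusted p = 0.0194) and not Vdac3 (limma adjusted p = 0.0804), and it called 4.03% of all probes. The arrays of slide 3 were also the dimmest, with a signal at the 75th percentile of 120.1 to 189.7 against 219.9 to 691.8 on the other slides, and slide, scan day and brightness cannot be told apart here.

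**Figure D3:**
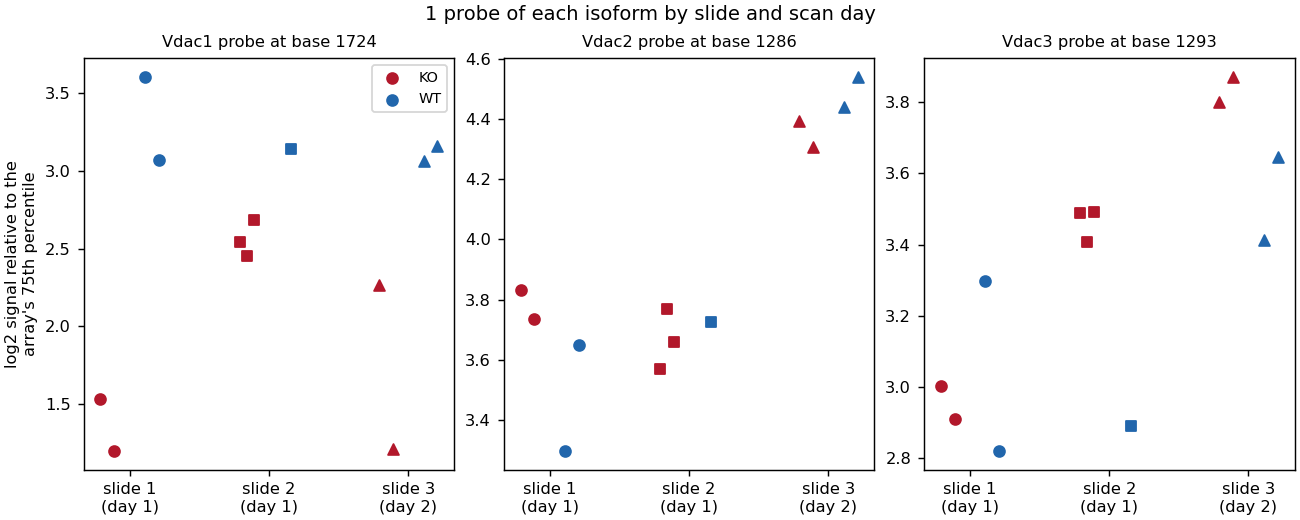
Log2 signal of 1 probe for each isoform relative to the array's 75th percentile, by slide and scan day, with KO in red to the left of WT in blue within each slide. Vdac2 lies between 4.31 and 4.54 on slide 3 in both genotypes and at 3.83 or lower elsewhere, whereas each slide shows KO below WT for Vdac1.

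Within each slide the Vdac1 difference kept its sign and changed in size. At base 1724 it was -1.97 on slide 1, -0.58 on slide 2 and -1.38 on slide 3, at base 880 it was -1.64, -0.50 and -1.52, and at base 630 it was -1.82, -0.41 and -1.35. Slide 2, with the smallest differences, held KO 1, KO 2, KO 3 and a lone wild-type culture, WT 5. Slide 1 held KO 6, KO 7, WT 3 and WT 8, and slide 3 held KO 4, KO 5, WT 6 and WT 7. Vdac2 differed by 0.31, -0.062 and -0.14 and Vdac3 by -0.10, 0.57 and 0.31 on slides 1, 2 and 3, so that neither kept 1 direction.

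The sample numbers in the labels fall into 1 to 4 and 5 to 8, a split already known to separate these arrays from earlier results. The residual Vdac1 signal followed it within the knockout. At base 1724 KO 5 to KO 7 averaged 1.31 ± 0.19 (SD, n = 3) and KO 1 to KO 4 averaged 2.48 ± 0.18 (SD, n = 4). On all 3 Vdac1 probes KO 5 to KO 7 lay below KO 1 to KO 4, an order that 16.8% of 17907 probes with a value on every array also showed, so the order alone does not set Vdac1 apart. All knockout cultures lay below all wild-type cultures at 166 probes, 0.927% of the total. Of these 166, 28 probes, 0.156% of the total, also had KO 5 to KO 7 below KO 1 to KO 4. The 28 included all 3 Vdac1 probes and the probe of ENSRNOT00000015727. Their share joins both orders, and whether the orders go together more often than each alone would give was not tested. The 3 Vdac1 probes read the same gene and are not independent.

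With the number class in the fit, the difference of numbers 5 to 8 minus 1 to 4 was -0.96 at the Vdac1 probe at base 1724 (SE 0.15, limma adjusted p = 0.000634). That is 1 of 3 Vdac1 probes called, where 12.7% of all probes were called lower. The coefficient was -0.72 at base 630 (limma adjusted p = 0.0662) and -0.58 at base 880 (limma adjusted p = 0.0784). For Vdac2 it was 0.33 (limma adjusted p = 0.334) and for Vdac3 -0.23 (limma adjusted p = 0.458). In numbers 5 to 8 alone the Vdac1 differences between knockout and wild type were -1.86 at base 630, -1.78 at base 880 and -1.80 at base 1724, and all 3 were called, where 2.2% of all probes were called lower. In numbers 1 to 4, with WT 3 as the lone wild-type culture, they were -0.49, -0.69 and -1.12, and none passed (limma adjusted p = 0.241, 0.142 and 0.0929), where 0.0335% of all probes were called lower. The test of the difference between both classes gave -1.36, -1.09 and -0.68, with limma adjusted p of 0.159, 0.186 and 0.195, where 1.22% of all probes were called lower. Both the values in numbers 1 to 4 and this test rest on 1 wild-type culture, WT 3, so these p-values do not settle whether the classes differ.

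The Vdac1 signal left in each knockout culture was then set against the mean of the wild-type cultures and against all other probes of the same array. At base 1724 it was 63.0% of the wild-type mean in KO 1, then 59.1% in KO 2, 69.3% in KO 3, and 51.9% in KO 4. It was 24.98% in KO 5, 31.3% in KO 6 and 24.8% in KO 7. Over the 3 Vdac1 probes the residual signal was 51.7% to 69.3% in the first 4 knockout cultures and 17.7% to 42.9% in KO 5 to KO 7. The probe of ENSRNOT00000015727 gave 48.6% to 72.6% in the first 4 and 24.2% to 27.5% in the other 3. Of the 5 wild-type cultures in the mean, 4 are numbered 5 to 8. For KO 1 to KO 4 residual and number class therefore cannot be told apart. Against wild type of the same class, that probe differed by -1.88 in numbers 1 to 4 and -1.66 in numbers 5 to 8. Its order turned, while the Vdac1 probes kept theirs, with -1.12 and -1.80 at base 1724. WT 3 is the lone wild-type culture in numbers 1 to 4. The percentages are ratios of processed array signal, which does not run in proportion to RNA near background.

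Within KO 5, KO 6 and KO 7 the Vdac1 probes were among the probes farthest below the wild-type mean. At base 1724, 0.782%, 0.687% and 0.503% of 17907 probes deviated as far down or farther in these 3 arrays. In KO 1, KO 2, KO 3 and KO 4 this share was 8.43%, 8.55%, 14.5% and 6.97%, so that between 1248 probes in KO 4 and 2594 in KO 3 lay as far below the wild-type mean as Vdac1. Numbers 5 to 8 give 4 of the 5 wild-type cultures in that mean, and limma called 12.7% of all probes lower in that class. For KO 1 to KO 4 number class and Vdac1 loss therefore cannot be told apart in these shares. The division by share held with quantile normalization and not with normexp, where the first 4 knockout cultures had 4.24%, 29.3%, 17.6% and 0.235%, while the other 3 had 0.0391%, 0.346% and 0.0335%, so that KO 4 had a smaller share than KO 6. Over the 3 Vdac1 probes the share ran from 0.307% to 2.13% in KO 5 to KO 7 and from 4.93% to 14.5% in KO 1 to KO 4. As a background, each wild-type culture was set against the mean of the other 4, and 79.3%, 34.9%, 32.3%, 46.7% and 24.4% of probes were as low as Vdac1 at base 1724 or lower in WT 3 and WT 5 to WT 8.

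The size of the deviation over the rest of the transcriptome did not separate KO 5 to KO 7 from KO 1 to KO 4. The root-mean-square deviation of all other probes from the wild-type mean was 0.577, 0.573, 0.564 and 0.620 on the log2 scale in KO 1 to KO 4. It was 0.645, 0.522 and 0.596 in KO 5 to KO 7. KO 6, with 31.3% of the Vdac1 signal left, had the smallest deviation of the 7, and KO 5, with 24.98%, the largest. Array brightness differed too. KO 4 and KO 5, the dimmest knockout arrays at 142.7 and 147.9 (75th percentile), had the largest deviations. KO 6 was at 596.1, and KO 2, the brightest at 691.8, had 0.573. The wild-type mean also comes mostly from numbers 5 to 8. How brightness or number class shaped these deviations was not tested. Set against the other 4 wild-type cultures, WT 3 deviated by 0.712, more than any knockout culture did from the mean of all 5, and WT 5 to WT 8 by 0.359 to 0.603. The knockout cultures fall into separate groups by residual Vdac1, so no correlation was computed across them. Vdac2 ranged from 77.7% of the wild-type mean in KO 1 to 138% in KO 4, and Vdac3 from 81.0% in KO 7 to 158% in KO 5.

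**Figure D4:**
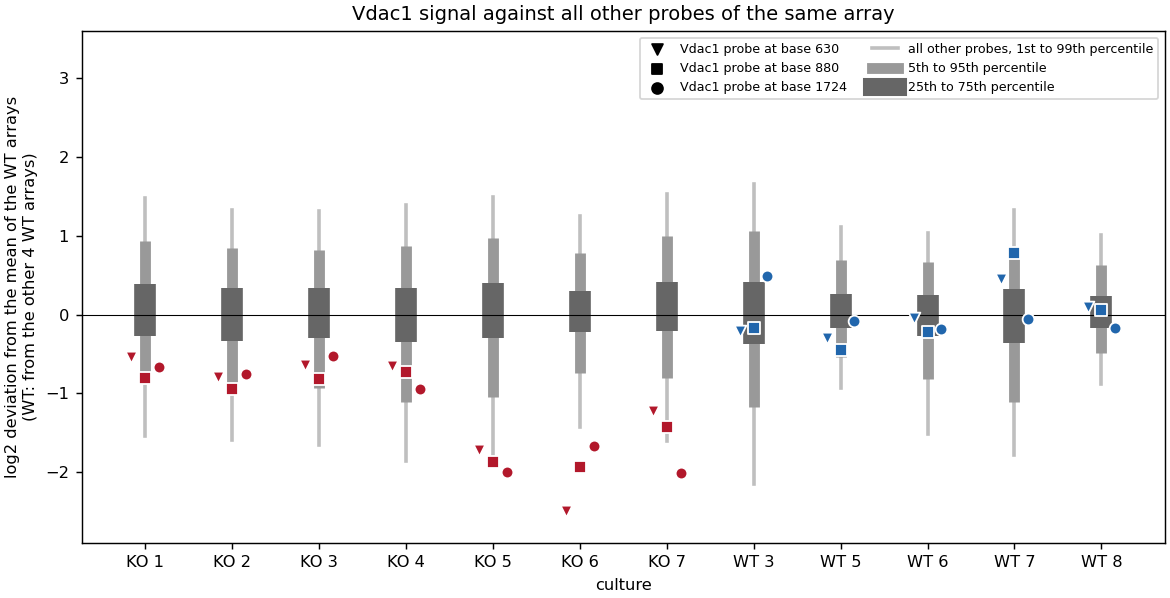
Log2 deviation of the 3 Vdac1 probes (markers) from the mean of the wild-type arrays in each culture, over bars for all other probes of that array at the 1st to 99th, 5th to 95th and 25th to 75th percentiles; each WT culture is set against the other 4. In KO 5 to KO 7 the markers lie near or below the 1st percentile, and in KO 1 to KO 4 they lie between the 1st and the 25th percentile.

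The genes with a profile nearest to that of Vdac1 were sought among 10114 named genes, each represented by its brightest probe. Nearness was the root-mean-square difference from the Vdac1 probe at base 1724 over the 12 arrays, after each probe was centred on its own mean. Vdac1 itself had a root-mean-square of 0.770 around its mean, and the median difference of all other probes was 0.875. The other Vdac1 probes ranked 19th (0.348) and 55th (0.413) of 17906, and the probe of ENSRNOT00000015727 ranked 3rd (0.267). Vdac3 ranked 8647th (0.869) and Vdac2 10915th (0.918), near the middle of all probes.

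The nearest named gene was Fam178b, at 0.250. Its signal lay between -3.99 and -3.55 in KO 5 to KO 7 and between -2.87 and -2.06 in KO 1 to KO 4, against -2.09 to -1.45 in WT 5 to WT 8 and -1.69 in WT 3. Then came Plk2, a polo-like kinase that phosphorylates alpha-synuclein, and Nol4l, both at 0.271, and Ptprk, a receptor tyrosine phosphatase, at 0.278. Erfe, which encodes the iron-regulating hormone erythroferrone, followed at 0.320, the Notch ligand gene Dll1 at 0.323 and Sertad2 at 0.344. Bmper, whose product binds bone morphogenetic proteins, was at 0.345, Tp53i11 at 0.357 and Phgdh, which catalyses the opening step of serine synthesis, at 0.366. Dll1 was well above background on 7 arrays and the other 9 on 10 or more.

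These 10 genes were chosen for their values on these arrays, so their knockout differences are given as a description. They ran from -1.34 for Fam178b to -0.52 for Phgdh, and 2 of the 10, Fam178b and Tp53i11, were called over all probes (limma adjusted p = 0.0424 and 0.0404), and each kept its call in 2 of 12 fits that left out 1 culture. KO 5 to KO 7 lay below KO 1 to KO 4 in 9 of the 10, Tp53i11 being the exception, and every knockout culture lay below every wild-type culture in 4, Plk2, Ptprk, Sertad2 and Tp53i11. Over all probes these orders were found for 16.8% and 0.927%, and 0.441% were called lower. The choice of genes by profile favours both orders. Likeness over 12 arrays that also share slide and number class says nothing of a common control.

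**Figure D5:**
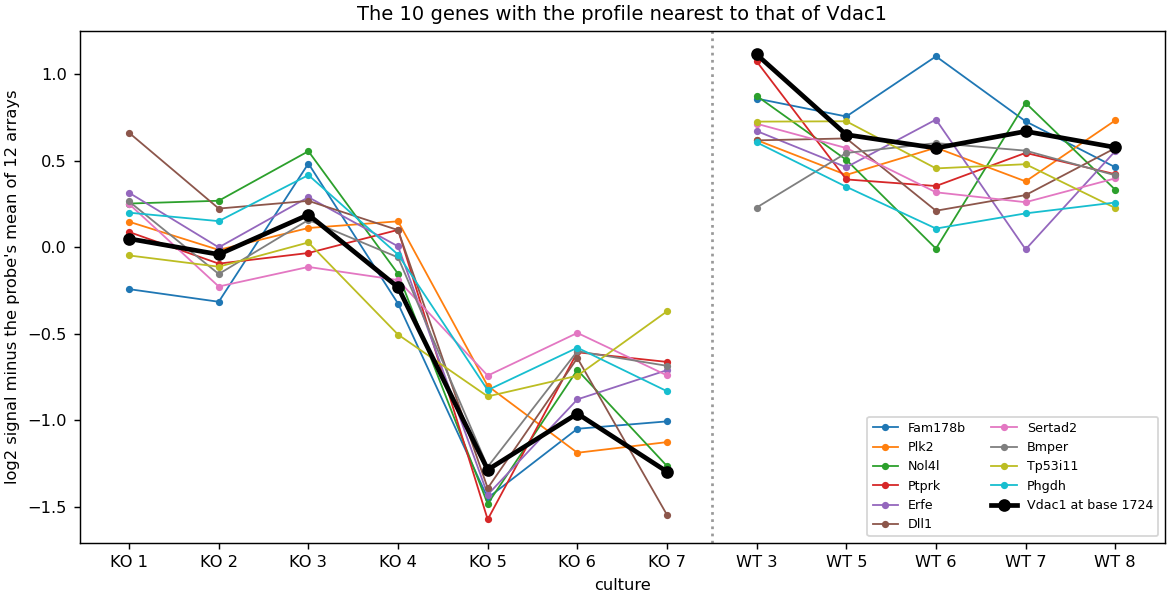
Log2 signal minus the probe's own mean over the 12 arrays for Vdac1 at base 1724 (black) and the 10 named genes nearest to it, with KO cultures left of WT cultures. Lines join the values of a probe within a genotype and carry no order of the cultures. In Vdac1 and 9 of the 10 genes KO 5 to KO 7 lie below KO 1 to KO 4.

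Genes whose products work with VDAC were counted from lists fixed with earlier results of these data known. Of 21 tested partners of VDAC and members of the permeability pore, limma called 0, where 0.686% of all probes were called higher and 0.441% lower. At these shares 0 calls do not set a list of this size apart. The median difference of the 21 was 0.19 against 0.035 over all probes. At an unadjusted p under 0.05, 3 members were higher and 1 was lower, where 9.19% and 6.63% of all probes were. The member with the smallest p was Ppif, which encodes cyclophilin D, a regulator of the pore in the mitochondrial matrix. It averaged 0.88 ± 0.25 (SD, n = 7) in KO cultures and 0.33 ± 0.16 (SD, n = 5) in WT cultures, a difference of 0.55 (SE 0.15, limma adjusted p = 0.0893). Ppif passed in 6 of 30 alternatives. Among them were slide as a block (0.55, limma adjusted p = 0.0406) and the number class as a block (0.61, limma adjusted p = 0.0339). Numbers 5 to 8 alone was another (0.76, limma adjusted p = 0.0441). With slide as a block 282 of 17922 probes were called higher, and in numbers 5 to 8 alone 362. Ppif did not pass with normexp (limma adjusted p = 0.304), quantile normalization (limma adjusted p = 0.113) or scan day as a block (limma adjusted p = 0.0513). It passed in 0 of 12 fits that left out 1 culture. With the number class as a block 2 members were called higher and 0 lower, where 2.95% and 2.14% of all probes were called.

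Of 16 tested genes for the import and assembly of beta-barrel proteins, limma called 0, against the same 0.686% and 0.441% of all probes. Their median difference was 0.088. Before adjustment (p under 0.05) 3 were higher and 1 was lower, where 9.19% and 6.63% of all probes were. Timm8a1, which encodes a small chaperone of the intermembrane space, had the smallest p, with 0.21 ± 0.15 (SD, n = 7) in KO cultures and 0.79 ± 0.30 (SD, n = 5) in WT cultures. The difference of -0.58 (SE 0.15, limma adjusted p = 0.0793) was called in 6 of 30 alternatives. Among them was the number class as a block, at -0.45 (limma adjusted p = 0.0483), where 2.14% of all probes were called lower. It was not called with normexp (limma adjusted p = 0.269), slide as a block (limma adjusted p = 0.0732) or numbers 5 to 8 alone (limma adjusted p = 0.0685). Of 12 fits that left out 1 culture, 1 called it. Of 12 tested regulators of nuclear genes for mitochondrial proteins, limma called 0, again beside 0.686% and 0.441% of all probes. Their median difference was -0.074. Before adjustment (p under 0.05) 0 were higher and 2 were lower, against the same 9.19% and 6.63% of all probes. The smallest p was that of Myc, a transcription factor of growth, which differed by -0.63 (SE 0.25, limma adjusted p = 0.236).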

How the data were processed

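Trizol was used to isolate total RNA, which was Cy3 labelled, per the labels' protocols. Images were read with Agilent Feature Extraction 10.7 per the submitters' processing notes. The file headers give build rn4 and, for the grid placement, version 10.1.1.1. The deposited scanner files give the intensity of each spot, not log transformed, with yes-or-no flags as other columns, per the file headers. The deposited value table holds log2 values that are alike in their sorted values on every array (median 3.06, lowest 1.5) and was used as an alternative. Its scale and direction were set by a Spearman correlation of 0.999 with each array's signal. The sample titles carry the words Q. Norm., which they do not spell out.

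Of the 58717 spots that are not controls on each array, uneven spots and population outliers were left out. The log2 processed signals of a probe's spots were averaged and taken relative to the 75th percentile of their array. The tested probes were well above background on 5 or more of the 12 arrays. RefSeq's rat gene table named 28217 probes, and 17381 kept the name in the files. The genotypes were compared with limma 3.58.1 under R 4.3.3 (two-sided tests after lmFit and eBayes without a covariate, Benjamini-Hochberg over all 17922 tested probes, threshold 0.05). Single values were tested with an exact permutation test over all divisions of the arrays into 7 and 5. Confidence intervals are limma's, and the number of arrays limits the precision. The fit was tested on simulated data in which 200 probes were changed. It called 0% of changes of 0.5 on the log2 scale, 48% of changes of 1 and 89% of changes of 2. The simulated noise was independent between arrays and held no effect of slide, scan day or number class, so rates on the real arrays may differ. Differences that were not called are therefore not shown to be absent.

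The genes named are the 3 Vdac genes, the 10 named genes nearest to Vdac1, and per list up to 4 called members or the member with the smallest p. Copies of Vdac genes were added after their values were seen. The members and lists were chosen with earlier results of these data known. Alternatives changed background correction (normexp, offset 50), normalization, the value table, the filter on dim probes, 1 probe per gene, blocks for slide, scan day, number class and sample number, array weights, and single cultures left out. Of the 4 numbers shared by both genotypes, 1 had deviations that correlated above 0.1, so the main comparison was not paired.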

Additional observations from a re-analysis of the deposited data

Results flagged for a closer look

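In 5 of 26 group values tested, a single culture stood apart from the rest of its group by Dixon's criterion, and chance flags about 1 in 20 groups. WT 3 had the highest signal at the Vdac1 probe at base 1724, 3.61, where the next wild-type culture had 3.16. WT 3 was also highest at the probe of ENSRNOT00000015727, with 1.84 against 0.49 in the next, and lowest in Vdac2 minus Vdac3, with -0.0015 against 0.83 in the next. KO 6 was lowest at the Vdac1-ps7 probe, with -5.19 against -4.32 in the next knockout culture, and lowest in the difference between the Vdac1 probes at bases 630 and 880, with -1.07 against -0.44 in the next. WT 3 is the lone wild-type culture numbered 1 to 4.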

How the results depend on the processing

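The Vdac1 difference stayed below 0 on each of the 3 probes in every alternative run, from -1.97 to -0.41, while its side of the threshold moved. At base 630 it passed with slide as a block (-1.27), number class as a block (-1.42), numbers 5 to 8 alone (-1.86), array weights (-0.79), slide and class as blocks (-1.44) and slide as a random block (-1.21). At base 1724 it passed in those settings at -1.38, -1.58, -1.80, -0.73, -1.60 and -1.30, and with quantile normalization (-1.33), the value table (-1.35), the filter on all 12 arrays (-1.23) and scan day as a block (-1.26). At base 880 the call was lost with normexp (-0.71), quantile normalization (-1.23), the value table (-1.22), no filter on dim probes (-1.22), with a replicate block (-1.50), with numbers 1 to 4 alone (-0.69) and within each slide (-1.64, -0.50 and -1.52). Leaving out the filter raises the number of probes tested, and the replicate block and single slides use few arrays. Whether this or anything else lost the calls was not tested in any of these settings.

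Vdac2 turned positive with slide (0.044), scan day (0.052), number class (0.085), slide and class (0.10) and slide as a random block (0.00092), within slide 1 (0.31) and in numbers 1 to 4 alone (0.55). Vdac3 turned negative within slide 1 (-0.10) and passed with array weights (0.49). Myc turned positive in numbers 1 to 4 alone (0.023). Vdac1 minus Vdac2 lost its call with quantile normalization (-1.12). Leaving out 1 culture at a time gave -1.26 to -0.93 at base 630, -1.31 to -1.07 at base 880, -1.34 to -1.10 at base 1724, -0.20 to 0.12 for Vdac2 and 0.11 to 0.32 for Vdac3. It gave -1.35 to -0.93 for Vdac1 minus Vdac2, -1.56 to -1.24 for Vdac1 minus Vdac3, -0.43 to -0.17 for Vdac2 minus Vdac3, -0.066 to 0.22 for bases 630 minus 1724, 0.0028 to 0.17 for 630 minus 880 and -0.13 to 0.17 for 880 minus 1724.

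Probes called higher and lower were 123 and 79 in the comparison as reported. They were 21 and 10 with normexp, 66 and 63 with quantile normalization, 64 and 64 with the value table, 220 and 138 with the filter on all 12 arrays, 282 and 187 with slide, 228 and 155 with scan day, 529 and 384 with number class, 362 and 394 in numbers 5 to 8, 47 and 6 in numbers 1 to 4, 3179 and 2886 with array weights, 1063 and 855 with slide and class, 286 and 187 with slide as a random block, and 1109 and 1071 within slide 2. Limma called 0 and 0 without the filter (1318 and 1116 at unadjusted p under 0.05), within slide 1 (1183 and 958), within slide 3 (518 and 447) and with the replicate block (1077 and 775). Leaving out 1 culture gave 13 to 442 higher and 4 to 335 lower, the highest without WT 3.

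With the replicate block, on the 4 numbers that both genotypes share, the Vdac1 differences were -1.50, -1.50 and -1.59 at bases 630, 880 and 1724 (limma adjusted p = 0.268, 0.254 and 0.248). The deviations of same-numbered cultures correlated at 0.45, -0.11, 0.067 and 0.051, and 1 of the 4 knockout cultures correlated best with its own number. The log2 deviation of Vdac1 at base 1724 moved by less than the spread between knockout cultures with normexp and quantile normalization, while the share of probes as low moved with normexp, to 29.3% in KO 2 and 0.235% in KO 4. The slide F test, the class coefficient, the interaction, the fit with slide and class, slide as a random block and the copies of Vdac genes were chosen after seeing the data.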
